A study of Mus musculus with 22 samples.

Results

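The genes described here are 10 core components of insulin and IGF1 signaling, namely the ligand Igf1, the receptors Insr and Igf1r, the adaptors Irs1 and Irs2, the PI3K regulatory subunit Pik3r1, the kinases Akt1 and Akt2, the transcription factor Foxo1 and the enzyme Pck1. They were taken from the count table by symbol alone and make up 10 of the 23420 genes in the count table. RNA-sequencing was performed on inguinal white adipose tissue (IWAT) of wildtype C57Bl/6 female mice that had eaten either regular chow (lean, n = 5) or a high fat diet (HFD; obese, n = 6) for 16 weeks. Each mouse carried E0771 cells, a mouse mammary cancer line, in PBS-Matrigel in the left inguinal pad (tumor-associated IWAT), and PBS-Matrigel without cells in the right pad (control IWAT), and both pads were taken after 2 weeks, giving 22 libraries. All groups thus shared genotype, sex and Matrigel injection, and the labels give no age. The RNA came from whole tissue dissected away from the tumor, with the lymph node, the sheet covering the tumor and the outermost IWAT removed. Any tumor cells that remained cannot be told apart from host cells in these libraries.

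Insulin and IGF1 bind receptor tyrosine kinases that phosphorylate the IRS adaptors, which recruit the lipid kinase PI3K through its p85 regulatory subunit. The phosphoinositide that PI3K makes brings AKT to the membrane, where it is activated, and active AKT phosphorylates FOXO1 and thereby keeps it out of the nucleus. In fat cells the pathway drives glucose uptake and restrains lipolysis, and insulin lowers transcription of Pck1, whose product supplies glycerol backbone for triglyceride. The libraries measure transcripts only, not phosphorylation or protein.

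Proximal promoters are shown for Irs1 and Pck1, which fell, and Akt1, which rose, in the tumor-associated pads of obese mice. They were taken from RefSeq on GRCm38.p6 and run 5′ to 3′ on the strand of the gene, from 250 bases before to 50 bases after its annotated start. Capitals mark 4 short letter strings looked up on both strands, chosen after the windows had been seen: CAAAACA, the core of the insulin response element; GTAAACA, the forkhead core; CACGTG, the E-box; and TTACGTCA, a cAMP response element. A match on the opposite strand reads TGTTTTG or TGTTTAC in the lines that follow.

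Irs1, chr1:82291390-82291689, minus strand: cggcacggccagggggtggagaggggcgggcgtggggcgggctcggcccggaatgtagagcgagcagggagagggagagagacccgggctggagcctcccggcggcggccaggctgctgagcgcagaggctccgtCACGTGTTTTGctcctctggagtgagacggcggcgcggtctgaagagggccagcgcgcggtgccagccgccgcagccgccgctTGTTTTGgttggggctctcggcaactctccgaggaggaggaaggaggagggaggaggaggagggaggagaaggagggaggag
Akt1, chr12:112674835-112675134, minus strand: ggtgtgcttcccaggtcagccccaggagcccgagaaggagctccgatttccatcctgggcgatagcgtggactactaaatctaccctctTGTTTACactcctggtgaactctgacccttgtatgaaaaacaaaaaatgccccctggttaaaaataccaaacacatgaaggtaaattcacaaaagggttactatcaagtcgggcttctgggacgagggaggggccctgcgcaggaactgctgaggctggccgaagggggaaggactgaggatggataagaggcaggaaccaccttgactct
Pck1, chr2:173152823-173153122, plus strand: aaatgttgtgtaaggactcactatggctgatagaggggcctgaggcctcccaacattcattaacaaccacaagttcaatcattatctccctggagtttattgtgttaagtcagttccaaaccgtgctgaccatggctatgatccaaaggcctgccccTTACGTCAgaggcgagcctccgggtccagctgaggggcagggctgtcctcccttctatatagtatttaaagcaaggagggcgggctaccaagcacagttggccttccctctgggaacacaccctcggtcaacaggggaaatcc

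In the Irs1 window, CACGTG began at position -115 from the start and overlapped an opposite-strand CAAAACA that began at -111, and a further opposite-strand CAAAACA lay at -32. The Irs2 window, not shown, also held CACGTG, at -44, and an opposite-strand CAAAACA, at -37, and Irs2 was not called in any comparison. The Akt1 window shown held the forkhead letters on the opposite strand at -161, and a further Akt1 window held none of these strings. The Pck1 window held TTACGTCA at -93, the cAMP response element known for this gene. Of 32851 windows of the same length, 6.28% held CAAAACA, 3.65% held GTAAACA, 7.15% held CACGTG and 0.499% held TTACGTCA. Of the 10 genes, 9 had a RefSeq window in the table used, 14 windows in all, and Insr was not among them. No window of Akt2, Pik3r1, Foxo1, Igf1 or Igf1r held any of these strings. Akt2, Pik3r1 and Foxo1 also fell with the tumor in obese mice, so the windows shown are only some of those with or without a change. These matches describe letters in a window and say nothing about binding.

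Gene counts ranged from 5759775 to 8598108 per library, and 14458 genes passed the filter on low counts, all 10 of the signaling genes among them, the lowest count being 94 for Foxo1 in a tumor-associated library of an obese mouse. Levels are given as CPM, counts scaled to a common library size after TMM normalization, with the SD over mice, and differences as log2 fold changes with the standard error (SE) and adjusted p of edgeR's quasi-likelihood test, called at an adjusted p under 0.05. The tissue label was checked against 8 adipocyte markers, all detected in every group, with a summed level of 4143 to 5274 CPM in lean control, 2712 to 4311 in lean tumor-associated, 6458 to 12511 in obese control and 829 to 4937 in obese tumor-associated IWAT. Lep weighed heavily in these sums, with a mean of 685 CPM in lean control and 4184 CPM in obese control IWAT. Between these control pads 2 of the 8 markers were called higher and 2 lower, so the diet difference in the sum does not hold for each marker. The lowest sums, 829 and 1253 CPM, belonged to obese mice 4 and 0. The obese tumor changes of the 10 genes are given with and without both pads of these mice. For the pathway lists this is done mainly through counts of calls. The control libraries of obese mice 1 and 3 stood apart in lymphocyte markers, with sums over 5 B cell markers of 473 and 439 CPM and over 5 T cell markers of 134 and 138 CPM, against at most 10.5 and 8.06 CPM in the other 4. For the 10 genes, values without both pads of mice 1 and 3 are given where they change a call. Of the other values that moved, only some are given. Among obese mice, 1 and 3 also had the smallest falls of the adipocyte markers with the tumor, at median log2 changes of -0.26 and -0.63. Leaving them out thus also keeps the mice with the larger falls. Summed levels of 10 macrophage markers ran from 667 to 1250 CPM in lean control, 1408 to 3349 in lean tumor-associated, 1026 to 1377 in obese control and 1569 to 4322 in obese tumor-associated IWAT. In bulk tissue, fewer cells of a type and less RNA per cell cannot be told apart.

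To ask whether a tumor in the pad went with changed expression of the pathway, tumor-associated was compared with control IWAT within each diet. In obese mice Akt1 rose while Irs1, Pik3r1, Akt2, Foxo1, Insr and Pck1 fell, so that 7 of the 10 genes were called, beside 54.5% of all genes tested. Akt1 was the 1 gene that was higher, against 26.8% of all genes, and 6 were lower, against 27.7%. The median log2 difference of the 10 genes was -0.53 and that of all genes tested -0.02. In lean mice 0 of the 10 genes were called by edgeR, beside 4.18% of all genes; 2 had an unadjusted p under 0.05, and DESeq2 called 1, Akt1. The lean median was -0.13 for the 10 genes and 0.01 for all genes tested.

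The diet comparisons asked what differed between obese and lean mice in each pad. The paper reports larger tumors in obese than in lean mice. Between tumor-associated pads, and in the difference between tumor changes, diet and tumor size therefore cannot be told apart. Between control pads, Irs1 and Pik3r1 were lower in obese mice, 2 of 10 beside 17.1% of all genes called and 7.53% called lower. Between tumor-associated pads, 7 of 10 were called beside 47% of all genes, 6 of them lower (Irs1, Pik3r1, Foxo1, Igf1, Akt2 and Insr), against 22.4% of all genes, and 1, Akt1, higher, against 24.7%. The difference between the obese and the lean tumor change was called for 1 gene, Akt1, higher in obese mice, beside 4.92% of all genes in either direction and 2.58% higher. That comparison was unsteady: leaving out 1 library moved its count over all genes from 711 to anything between 1 and 3568, and without both pads of obese mice 1 and 3 it called 5 of the 10 genes, Akt1 higher (0.48) and Foxo1 (-1.48), Pik3r1 (-0.89), Insr (-0.56) and Akt2 (-0.44) lower, beside 4951 genes in all. These comparisons share groups with one another, so their values are set side by side below.

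**Figure D1:**
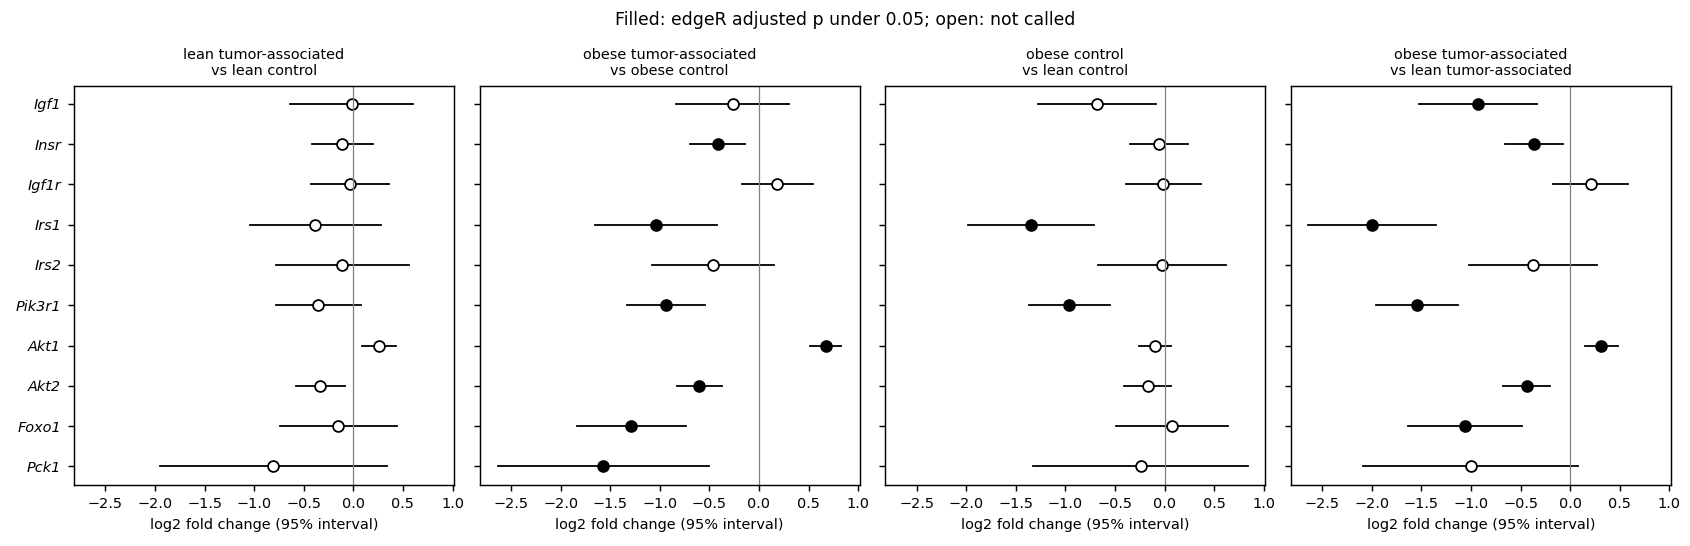
Log2 fold change of each of the 10 genes (points) with its 95% interval (lines) in the 4 comparisons, filled where the edgeR adjusted p was under 0.05. In obese tumor-associated against obese control IWAT, Akt1 lies to the right of 0 at 0.67 and 6 filled points lie to the left, from -0.42 for Insr to -1.57 for Pck1.

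The ligand Igf1, a growth factor made in liver and locally in fat, was at 403, 475, 505, 506 and 546 CPM in lean control IWAT and at 434, 452, 456, 502 and 560 CPM in lean tumor-associated IWAT. In obese mice it ran from 234 through a median of 278 to 448 CPM in control and from 59.9 through 262 to 381 CPM in tumor-associated IWAT. Every obese tumor-associated library thus lay below every lean tumor-associated one, and the 59.9 of mouse 4 stood far below the next, 192. Between tumor-associated pads Igf1 was lower in obese mice by -0.93 on the log2 scale (SE 0.29, edgeR adjusted p = 0.0117), and by -0.65 without both pads of mice 0 and 4 (adjusted p = 0.0184). Between control pads the estimate was -0.68 (SE 0.29, edgeR adjusted p = 0.105), not called, and it was called in 3 of 30 alternatives. Without the tumor-associated library of obese mouse 4 it was -0.68 (adjusted p = 0.0081). It was -0.69 with the control groups fitted alone (adjusted p = 0.00695) and -0.72 without both pads of mice 0 and 4 (adjusted p = 0.0164). The tumor comparisons gave -0.02 in lean mice (95% interval -0.64 to 0.60) and -0.26 in obese mice (-0.83 to 0.31). The obese estimate was 0.04 without both pads of mice 0 and 4 (edgeR adjusted p = 0.907). Without those of mice 1 and 3 it was -0.62 (adjusted p = 0.121).

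Insr, the insulin receptor, was at 261, 278, 284, 301 and 351 CPM in lean control and at 244, 244, 261, 274 and 339 CPM in lean tumor-associated IWAT, and it ran from 230 through 290 to 318 CPM in obese control and from 153 through 217 to 303 CPM in obese tumor-associated IWAT. The groups overlapped in every comparison, and obese mice 0 and 4 gave the 2 lowest tumor-associated values. In obese mice Insr fell by 0.42 on the log2 scale with the tumor (SE 0.14, edgeR adjusted p = 0.0133), lower in 5 of 6 mice, and without both pads of mice 0 and 4 the estimate was -0.19 with an adjusted p of 0.286, whereas without those of mice 1 and 3 it was -0.69 (adjusted p = 0.000323). Between tumor-associated pads it was -0.36 in obese against lean (SE 0.14, edgeR adjusted p = 0.0401), a call that was lost in 10 of 30 alternatives, and between control pads the estimate was -0.06 (95% interval -0.35 to 0.24).

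Igf1r, the IGF1 receptor, was not called in any comparison, by edgeR or by DESeq2. Group means were 93.4 ± 11.5 CPM in lean control (SD, n = 5), 91.1 ± 12.1 in lean tumor-associated (n = 5), 92.5 ± 12.1 in obese control (n = 6) and 105 ± 38.0 in obese tumor-associated IWAT (n = 6). The wide SD of the last group came with a split between mice: 165, 130 and 113 CPM in mice 4, 2 and 0 against 68.4 to 77.8 CPM in mice 8, 1 and 3. The obese tumor difference was 0.18 (95% interval -0.17 to 0.54), higher in 3 of 6 mice. It was -0.06 without both pads of mice 0 and 4 (edgeR adjusted p = 0.82). Without those of mice 1 and 3 it was 0.32 (adjusted p = 0.183).

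Irs1, the main docking adaptor of the insulin receptor in fat cells, had the largest diet difference of the 10 genes in both kinds of pad. Its level was 354, 385, 394, 521 and 535 CPM in lean control and 309, 317, 323, 332 and 396 CPM in lean tumor-associated IWAT. Obese mice gave values from 113 through 168 to 233 CPM in control and from 17.2 through 87.5 to 137 CPM in tumor-associated IWAT. No obese library reached the lowest lean library of the same kind of pad, and the lowest value of all, 17.2 CPM, was that of obese mouse 4. Irs1 was 2.54 times lower in obese than in lean control IWAT (log2 -1.35, SE 0.30, edgeR adjusted p = 0.00468) and 4.00 times lower between tumor-associated pads (log2 -2.0, SE 0.31, adjusted p = 5.9e-05). With the tumor it fell by 1.04 on the log2 scale in obese mice (SE 0.29, edgeR adjusted p = 0.00581), in 6 of 6 mice, and without both pads of mice 0 and 4 the estimate was -0.58 (adjusted p = 0.0268). In lean mice all 5 tumor-associated pads were lower than their control pads, but the estimate of -0.38 (SE 0.32) was not called (adjusted p = 0.686).

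Irs2, the other widely expressed adaptor, was not called in any comparison, by edgeR or by DESeq2. Its means were 64.3 ± 16.4 CPM in lean control (SD, n = 5), 59.6 ± 23.0 in lean tumor-associated (n = 5), 63.2 ± 14.7 in obese control (n = 6) and 45.9 ± 21.5 in obese tumor-associated IWAT (n = 6). The difference between control pads was -0.02 with a 95% interval of -0.67 to 0.62. The obese tumor difference was -0.46 (-1.08 to 0.15). It was -0.11 without both pads of mice 0 and 4 (edgeR adjusted p = 0.773). Without those of mice 1 and 3 it was -0.83 (adjusted p = 0.0571).

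Pik3r1 encodes p85 alpha, the regulatory subunit that holds the PI3K catalytic subunit and docks it on IRS proteins. It was at 798, 807, 814, 871 and 914 CPM in lean control and at 602, 615, 646, 669 and 761 CPM in lean tumor-associated IWAT. With HFD it ran from 396 through 427 to 474 CPM in control and from 101 through 242 to 331 CPM in tumor-associated IWAT. The 4 groups formed steps with no overlap between neighbours: all lean control libraries lay above all lean tumor-associated ones, these above all obese control ones, and these above all obese tumor-associated ones. Between control pads Pik3r1 was 1.94 times lower in obese mice (log2 -0.96, SE 0.20, edgeR adjusted p = 0.0022), and Irs1 and Pik3r1 were the 2 members whose control groups did not overlap, beside 13% of all genes. With the tumor it fell by 0.93 on the log2 scale in obese mice (SE 0.19, edgeR adjusted p = 0.000501), lower in 6 of 6 mice, and without both pads of mice 0 and 4 the estimate was -0.61 (adjusted p = 0.00133). The lean tumor difference was -0.35 (SE 0.20, edgeR adjusted p = 0.443), lower in 5 of 5 mice, and was called only when the 2 lean groups were fitted alone (adjusted p = 0.022) or without both pads of obese mice 0 and 4 (adjusted p = 0.0366). Between tumor-associated pads the log2 difference was -1.54 (SE 0.20, edgeR adjusted p = 1.3e-05), and Irs1, Pik3r1 and Igf1 were the 3 members without overlap there, beside 24.4% of all genes.

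**Figure D2:**
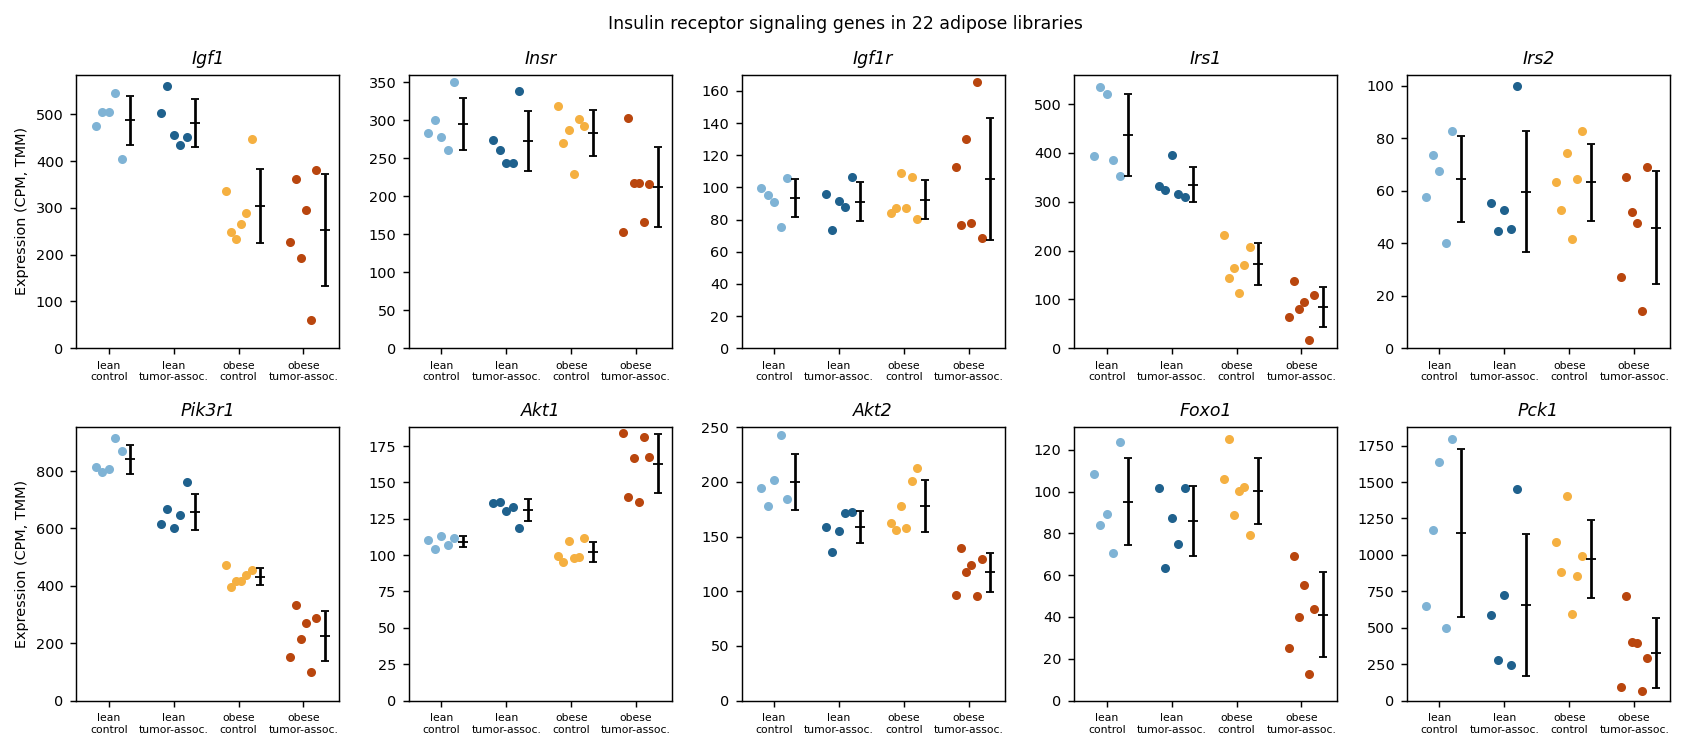
Expression (CPM, TMM-scaled) of the 10 genes in every library, 1 point per mouse, with the mean ± SD of each group drawn beside the points (n = 5 per lean and n = 6 per obese group). Pik3r1 descends over the 4 groups without overlap between neighbours, Irs1 separates by diet, and the Akt1 points of obese tumor-associated IWAT, from 137 to 184 CPM, lie above all those of obese control IWAT, which end at 112 CPM.

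The kinases Akt1 and Akt2 moved in opposite directions with the tumor. Akt1, the isoform tied mostly to growth and survival, was at 104, 107, 111, 112 and 113 CPM in lean control and at 119, 131, 133, 136 and 137 CPM in lean tumor-associated IWAT, so the lean groups did not overlap. The obese libraries ran from 95.2 through 99.1 to 112 CPM in control and from 137 through 167 to 184 CPM in tumor-associated IWAT, again without overlap. The rise was 0.67 on the log2 scale in obese mice (SE 0.08, edgeR adjusted p = 2.9e-06), higher in 6 of 6 mice, and the lean estimate was 0.26 (SE 0.08, adjusted p = 0.0809), higher in 5 of 5 mice. In lean mice it was called by DESeq2, with the groups fitted alone and without both pads of obese mice 1 and 3 (adjusted p = 0.0389). The obese rise was 0.55 (adjusted p = 0.000296) without both pads of mice 0 and 4.

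Akt2, the isoform most closely tied to insulin-stimulated glucose uptake, was at 178, 184, 195, 202 and 243 CPM in lean control and at 136, 156, 159, 171 and 172 CPM in lean tumor-associated IWAT. In obese mice the values ran from 156 through 170 to 213 CPM in control and from 95.4 through 121 to 139 CPM in tumor-associated IWAT. Neither pair of pads overlapped. Akt2 fell by 0.60 on the log2 scale with the tumor in obese mice (SE 0.11, edgeR adjusted p = 0.00021), lower in 6 of 6 mice, while the lean estimate was -0.33 (SE 0.12, adjusted p = 0.137), lower in 5 of 5. These estimates were -0.47 (adjusted p = 0.00711) and -0.35 (adjusted p = 0.049) without both pads of obese mice 0 and 4. Akt1, Akt2 and Pik3r1 were the 3 members that did not overlap in the lean tumor comparison, beside 8.36% of all genes, and with Foxo1 they made up the 4 in the obese one, beside 19.6%.

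Between control pads the estimates were -0.10 for Akt1 (95% interval -0.26 to 0.07) and -0.17 for Akt2 (-0.41 to 0.07). Between tumor-associated pads Akt1 was higher by 0.31 on the log2 scale in obese mice (SE 0.08, edgeR adjusted p = 0.00306) and Akt2 was lower, at -0.44 (SE 0.11, adjusted p = 0.00383). The tumor change of Akt1 exceeded that of lean mice by 0.41 in obese mice (SE 0.11, edgeR adjusted p = 0.0463), and with the mouse as a block that difference was 0.40 with an adjusted p of 0.0576. The call was lost in 19 of 30 alternatives, 16 of them with a single library left out. The corresponding difference for Akt2 was -0.27 (95% interval -0.60 to 0.07).

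Foxo1, the transcription factor that AKT keeps out of the nucleus, changed with the tumor in obese mice and was not called in the other pad comparison. It was at 70.6, 84.0, 89.4, 108 and 124 CPM in lean control and at 63.3, 75.0, 87.3, 102 and 102 CPM in lean tumor-associated IWAT. On HFD the level ran from 79.2 through 101 to 125 CPM in control and from 12.7 through 41.9 to 69.3 CPM in tumor-associated IWAT. The obese groups did not overlap and the lean groups did. Foxo1 was 2.44 times lower in the obese tumor-associated pads (log2 -1.29, SE 0.27, edgeR adjusted p = 0.00058), lower in 6 of 6 mice, against a lean estimate of -0.15 (95% interval -0.74 to 0.44). The obese estimate was -0.92 (adjusted p = 0.00355) without both pads of mice 0 and 4. The difference between the obese and the lean change was -1.14 (SE 0.39, edgeR adjusted p = 0.0663), not called by edgeR but called by DESeq2 (adjusted p = 0.0399) and, without the tumor-associated library of obese mouse 1, by edgeR (-1.34, adjusted p = 0.017). Between tumor-associated pads Foxo1 was lower in obese mice by -1.06 (SE 0.27, edgeR adjusted p = 0.00372), and between control pads the estimate was 0.08 (95% interval -0.49 to 0.64).

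Pck1, the cytosolic phosphoenolpyruvate carboxykinase that feeds glyceroneogenesis in fat, varied widely between mice. It was at 496, 650, 1170, 1635 and 1793 CPM in lean control and at 242, 275, 585, 728 and 1453 CPM in lean tumor-associated IWAT. In the obese groups it ran from 596 through 939 to 1405 CPM in control and from 64.0 through 344 to 719 CPM in tumor-associated IWAT. The groups overlapped in every comparison, and mice 4 and 0 held the 2 lowest obese tumor-associated values. The tumor-associated pad was lower in 5 of 5 lean and 6 of 6 obese mice. The obese fall was 1.57 on the log2 scale (SE 0.51, edgeR adjusted p = 0.0138), a 2.97-fold decrease, and without both pads of mice 0 and 4 the estimate was -1.11 with an adjusted p of 0.103, whereas without those of mice 1 and 3 it was -2.38 (adjusted p = 0.00334). The lean estimate was -0.81 (SE 0.55, edgeR adjusted p = 0.562). Between tumor-associated pads it was -1.0 (SE 0.52, adjusted p = 0.119), called at -1.40 with an adjusted p of 0.0302 once the library of obese mouse 1 was left out and at -1.64 (adjusted p = 0.0239) without both pads of mice 1 and 3, and between control pads it was -0.24 (95% interval -1.33 to 0.84).

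In CPM per kilobase of exon, the scale on which levels of different genes can be ordered, the 10 genes spanned 335 for Pck1 to 5.56 for Igf1r in lean control IWAT. The order there was Pck1 (335 ± 168, SD, n = 5), Pik3r1 (83.4 ± 4.93), Igf1 (49.2 ± 5.35), Irs1 (47.9 ± 9.17), Akt2 (28.1 ± 3.60), Akt1 (26.6 ± 0.919), Insr (21.4 ± 2.49), Foxo1 (11.0 ± 2.41), Irs2 (10.2 ± 2.59) and Igf1r. Neighbours whose ranges over mice overlapped were Igf1 and Irs1, Akt2 and Akt1, Akt1 and Insr, and Foxo1 and Irs2. In obese tumor-associated IWAT Pck1 still had the highest mean per-kilobase level (95.4 ± 70.2, SD, n = 6), but Akt1 (39.7 ± 4.92) came next, Irs1 (9.16 ± 4.51) stood at rank 7 and Foxo1 (4.74 ± 2.34) last. There, every pair of neighbours in the order overlapped.

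Ratios within a library do not depend on how libraries are scaled and are given as a description. The log2 ratio of Akt1 to Akt2 averaged -0.87 ± 0.18 in lean control (SD, n = 5), -0.27 ± 0.20 in lean tumor-associated (n = 5), -0.79 ± 0.15 in obese control (n = 6) and 0.48 ± 0.39 in obese tumor-associated IWAT (n = 6). It rose in 5 of 5 lean mice, by 0.59 on average, and in 6 of 6 obese mice, by 1.27. The ratio was above 0 in every obese tumor-associated library and below 0 in every control library. CPM is not corrected for gene length (4098 exon bases for Akt1, 7131 for Akt2), so 0 does not mark equal levels. Per kilobase, the obese control means were 24.9 for Akt1 and 24.9 for Akt2. Irs2 to Irs1 averaged -2.78 ± 0.43, -2.55 ± 0.53, -1.44 ± 0.24 and -0.81 ± 0.34 in the same order of groups, with no overlap between lean and obese control pads. Igf1r to Insr averaged -1.66 ± 0.11, -1.58 ± 0.17, -1.62 ± 0.23 and -1.05 ± 0.77, higher with the tumor in 3 of 5 lean and 4 of 6 obese mice.

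**Figure D3:**
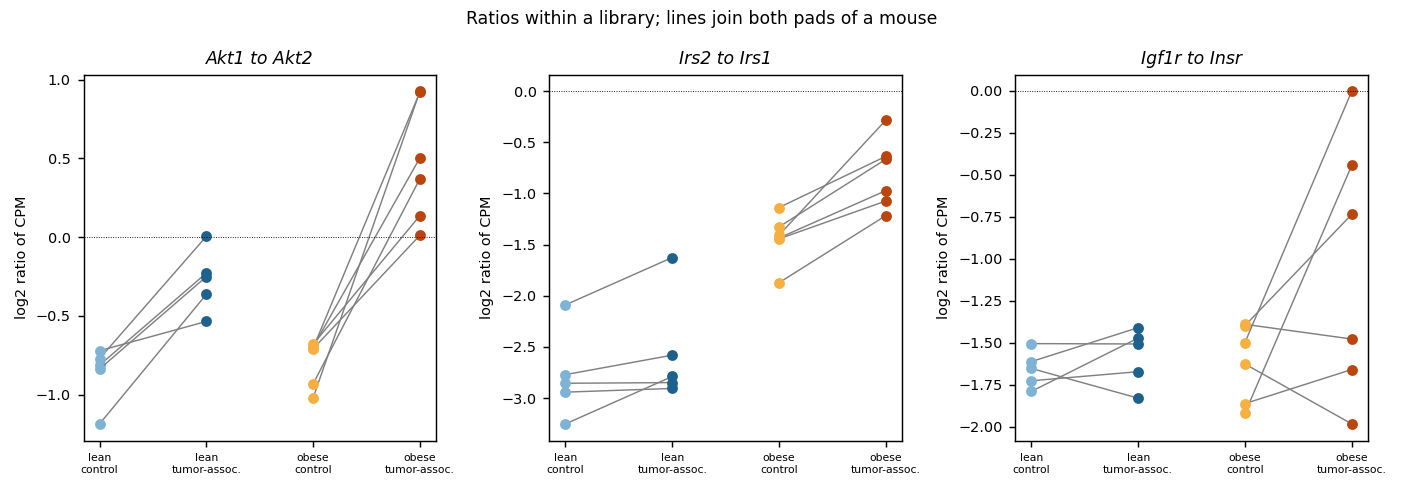
Log2 ratio of CPM within each library for Akt1 to Akt2, Irs2 to Irs1 and Igf1r to Insr in the 4 groups, with lines joining both pads of a mouse. The Akt1 to Akt2 ratio lies above 0 in all 6 obese tumor-associated libraries, from 0.01 to 0.93, and below 0 in all control libraries. CPM is not corrected for gene length, so 0 does not mark equal levels of Akt1 and Akt2.

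Markers of fat cells moved alongside several of these genes. Of 8 adipocyte markers, 8 were lower in obese tumor-associated than in obese control IWAT, with a median log2 difference of -1.51, and 0 were called in lean mice by edgeR or DESeq2, where 2 had an unadjusted p under 0.05 and the median was -0.60. Mouse by mouse, the median marker change ran from -0.26 in obese mouse 1 to -3.69 in obese mouse 4, and from -0.22 to -0.77 in lean mice. Pck1 fell more than the markers in 5 of 6 obese and 4 of 5 lean mice. Its difference from them was as small as -0.04 in obese mouse 1, -0.05 in obese mouse 4 and -0.09 in lean mouse 9. Irs1, Insr, Akt2, Irs2 and Igf1 fell less, or rose, in 6 of 6 obese mice, Pik3r1 did so in 5 of 6 and Foxo1 in 4 of 6. For Pik3r1 the difference was near 0 in obese mice 3 (0.01) and 1 (-0.0009). The part of the adipocyte markers in the falls of these genes was not tested.

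Proliferation and leukocyte markers also moved with the tumor. All 7 proliferation markers were higher in obese tumor-associated IWAT, with sums of 500 to 1739 CPM against 116 to 266 in the control pads, the highest in mice 4 and 0, which also had the 2 highest Akt1 values. In lean mice edgeR called 0 of the 7 and DESeq2 3, and all 7 had an unadjusted p under 0.05. Of 10 macrophage markers, 9 were higher with the tumor in each diet. Their sum in obese tumor-associated pads was highest in mouse 0 (4322 CPM) and lowest in mouse 4 (1569 CPM). The part of the proliferation and macrophage markers in the Akt1 rise was not tested. Without both pads of mice 0 and 4, 5 of the 10 signaling genes were called in obese mice, the calls of Insr and Pck1 being lost.

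Markers of other cell types moved too. Of 6 mammary epithelium markers tested, 5 were lower in obese tumor-associated than in obese control IWAT (median log2 difference -1.64), and summed levels over the 8 listed ran from 283 to 717 CPM in obese control and from 163 to 370 CPM in obese tumor-associated IWAT, against 716 to 1186 and 708 to 1382 CPM in the lean pads. Of 6 endothelial markers, 4 were lower with the tumor in obese mice (median -0.65), with sums of 910 to 1274 CPM in control and 272 to 1139 CPM in tumor-associated pads. In lean mice edgeR called 0 of either list, with 0 and 1 at an unadjusted p under 0.05 and 0 called by DESeq2. Between control pads 2 adipocyte markers were higher and 2 lower in obese mice, 2 mammary epithelium markers were lower, and 0 of 5 B cell and 0 of 5 T cell markers were called, 4 of each having an unadjusted p under 0.05 and 2 B cell markers being called by DESeq2. Between tumor-associated pads 6 of 6 mammary epithelium markers (median -2.58), 5 of 8 adipocyte and 4 of 8 fibroblast and progenitor markers were lower in obese mice. The adipocyte marker Lep was instead higher there (log2 1.34, edgeR adjusted p = 0.00529), as were 7 of 7 proliferation markers. Sums of 6 skeletal muscle markers ran from 11.9 through 22.1 to 2216 CPM in obese control and from 4.06 to 216 CPM in obese tumor-associated pads. Lean control sums were 2.45 to 8.12 CPM. Of 2 tested, 2 were higher in obese than lean control pads and 1 was lower with the tumor in obese mice. The fibroblast markers Col1a1 and Col1a2 were higher with the tumor in both diets, and Dcn was lower in obese mice. The part of all these markers in the falls and diet differences of the signaling genes was not tested.

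**Figure D4:**
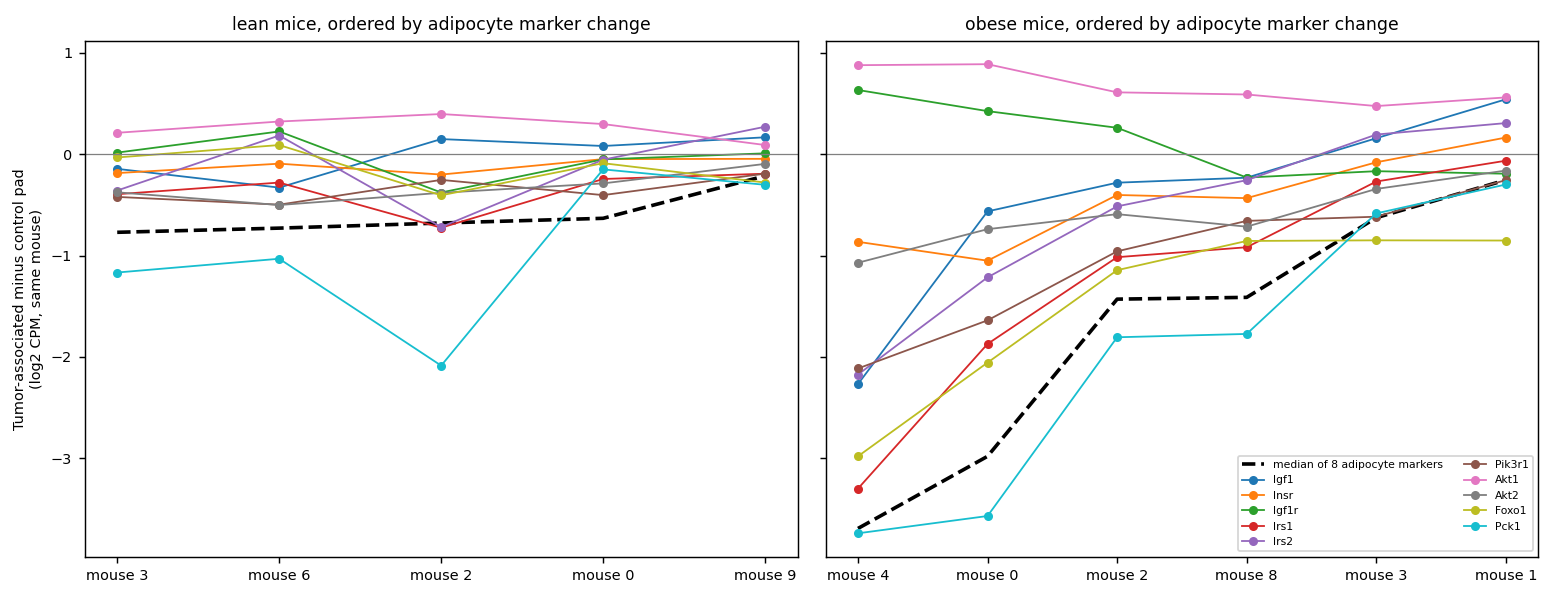
Change between the pads of each mouse (tumor-associated minus control, log2 CPM) for the 10 genes and, as a dashed line, for the median of 8 adipocyte markers, with mice ordered by that median and lines drawn only to guide the eye. Akt1 is above 0 in every lean and obese mouse, and in obese mice 4 and 0 the adipocyte median is at -3.69 and -2.98 with Pck1 at -3.74 and -3.57.

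Around these 10 genes, 86 further pathway genes in 6 lists could be tested. In obese mice 13 (15.1%) rose and 33 (38.4%) fell with the tumor, beside 26.8% and 27.7% of all genes, against which the counts of each list below are also to be read. In lean mice 1 rose, Pik3ap1, and 0 fell by edgeR, beside 3.27% and 0.913% of all genes, with 21 at an unadjusted p under 0.05 and 1 higher and 4 lower by DESeq2. Between control pads 12 (14%) were higher and 6 (6.98%) lower in obese mice, beside 9.54% and 7.53%, and between tumor-associated pads 17 (19.8%) and 21 (24.4%), beside 24.7% and 22.4%. Without both pads of obese mice 0 and 4 the obese tumor counts were 3 and 25, beside 15.5% and 16.7% of all genes. The lean tumor counts were then 1 higher and 10 lower, beside 696 and 406 of the 14521 genes tested. The lists share the tissue, the libraries and some genes, so the counts describe them and test nothing about a list.

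In the IGF axis, 4 of 11 genes (36.4%) were lower in obese tumor-associated than in obese control IWAT and the other 7 were not called. The 4 calls held without both pads of mice 0 and 4. They were Igfals (-1.70 log2), whose product stabilises circulating IGF1, the growth hormone receptor Ghr (-1.22), and the binding proteins Igfbp3 (-0.95) and Igfbp5 (-0.93). Igfbp3 went the other way with diet in control pads, from 55.2 CPM in lean to 163 CPM in obese mice (log2 1.56, edgeR adjusted p = 0.000611).

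Among 18 receptor adaptors and inhibitors, 8 (44.4%) rose and 5 (27.8%) fell in obese mice. Inhibitors on the list went both ways. Trib3, a pseudokinase that binds AKT, went from 8.61 to 31.8 CPM (log2 1.88), Socs3, which binds the receptor and IRS proteins, from 16.7 to 52.0 CPM (1.63), and the phosphatase Ptpn1 rose by 0.73. Grb14, which binds and inhibits the receptor, fell from 34.4 to 16.7 CPM (-1.03), and Enpp1, another inhibitor of the receptor, was at 14.4 and 15.5 CPM (0.10, edgeR adjusted p = 0.79). Irs3, a fat-enriched adaptor of rodents, was at -1.45 and the receptor-type phosphatase Ptprf at -1.40. Without both pads of obese mice 0 and 4, 2 of the 18 rose, Socs3 and Ptpn1, and 5 fell, while Trib3 was at 1.19 with an adjusted p of 0.0609.

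Of 14 genes of PI3K and the phosphoinositide phosphatases, 1 (7.14%) rose and 5 (35.7%) fell in obese mice, and without both pads of mice 0 and 4 the counts were 0 and 5. Inpp4b, a phosphatase of the pathway's lipid product, was at -1.73, the catalytic subunit Pik3cb at -0.98 and the regulatory subunit Pik3r3 at -0.67. Obese control pads held 119 and 131 CPM of Inpp4b in mice 1 and 3, the libraries with the high lymphocyte markers, and 25.9 to 41.8 CPM in the other 4, against 13.7 to 32.4 CPM in the tumor-associated pads, and without both pads of mice 1 and 3 the fall was 1.24 (adjusted p = 9.4e-05). The adaptor Pik3ap1, known from B cells and macrophages, rose in both diets with the tumor (0.97 in lean and 0.68 in obese mice), the obese call being lost without both pads of mice 0 and 4 (0.57, adjusted p = 0.0981), and was higher in obese than lean control pads (1.20). In the AKT, FOXO and mTOR arm 1 of 21 (4.76%) rose and 5 (23.8%) fell, or 0 and 3 without both pads of mice 0 and 4, the fallers being, among others, Pde3b (-1.40), the phosphodiesterase through which insulin restrains lipolysis, Foxo3 (-0.48) and Mtor (-0.34).

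Of 8 genes of glyceroneogenesis and glycerol handling, the setting in which Pck1 acts, 5 (62.5%) fell and 2 (25%) rose in obese mice, and without both pads of mice 0 and 4 only 2, Pcx and Gpam, fell and 1, Gyk, rose. Pyruvate carboxylase (Pcx) was at -1.57, the acyltransferase Agpat2 at -1.40, glycerol-3-phosphate dehydrogenase (Gpd1) at -1.27 and the glycerol channel Aqp7 at -1.23. Glycerol kinase, listed as Gyk, rose by 0.73 and the mitochondrial Pck2 by 0.50, opposite in sign to Pck1. Pcx, Agpat2 and Gpam were also lower in obese than lean control pads (-1.79, -1.74 and -1.68), where the estimate for Pck1 was -0.24.

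Of 16 genes known as FOXO1 targets, 9 (56.2%) fell and 1 (6.25%) rose with the tumor in obese mice, and without both pads of mice 0 and 4 the counts were 6 and 0. Klf15 was at -1.60, Bnip3 at -1.55, Sesn3 at -1.41 and Txnip at -1.12. Sesn3, a stress-induced regulator of mTOR signaling, fell more in obese than in lean mice, with a difference of -1.34 (SE 0.30, edgeR adjusted p = 0.0373), and for Gyk, which was at -0.17 with the tumor in lean mice, the difference was 0.89 (edgeR adjusted p = 0.0396). These were the 2 of 86 genes for which edgeR called the difference between the diets, 1 higher and 1 lower, beside 2.58% and 2.34% of all genes, and both calls were lost without both pads of obese mice 0 and 4.

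**Figure D5:**
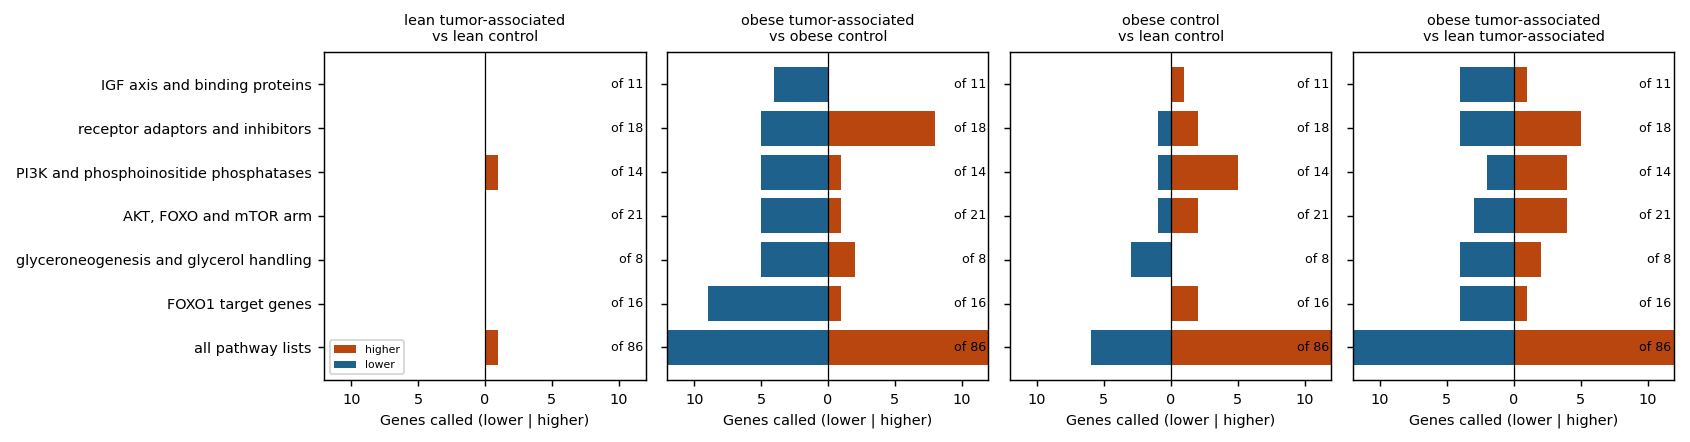
Number of genes called higher (bars to the right of 0) and lower (bars to the left) in 6 pathway lists that do not include the 10 signaling genes, for 4 comparisons, with the number tested at the right edge of each row. The bars for obese tumor-associated against obese control IWAT reach 9 lower among 16 FOXO1 targets and 8 higher among 18 receptor adaptors and inhibitors.

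The genes whose pattern over the 22 libraries was most like that of a member were found by the root mean square difference in log2 CPM, each gene centred on its own mean. Irs1 was nearest to Esr1, the estrogen receptor (0.30, beside an SD of Irs1 itself of 1.18). Pik3r1 was nearest to Nfia (0.20, SD 0.85), Foxo1 to Smarca2 (0.23, SD 0.79) and Pck1 to Ces1f (0.40, SD 1.26). Akt1 was nearest to Arf5 (0.07, SD 0.29), Akt2 to Lonp2 (0.11, SD 0.35), Insr to Tom1l2 (0.13, SD 0.30), Igf1r to Tshz1 (0.14, SD 0.29), Irs2 to Dhrs3 (0.26, SD 0.60) and Igf1 to Pcdhgc3 (0.22, SD 0.72). The points share libraries and the 4 groups, so a small difference describes a like pattern and no more.

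On GRCm38 with GENCODE M21, Akt2, Igf1r and Pck1 overlap no other annotated gene. Insr, Irs1, Irs2, Igf1 and Foxo1 overlap genes on the opposite strand, such as Igf1os opposite Igf1 and Gm9747 opposite Irs1, and reads from these could not be told apart where the counting ignored strand. Akt1, Pik3r1 and Foxo1 overlap an annotated gene on their own strand, for which the strand setting makes no difference. Irs1 lies at chr1:82233101-82291416, Pik3r1 at chr13:101680563-101768217, Akt1 at chr12:112653821-112674884, Akt2 at chr7:27591552-27640826, Foxo1 at chr3:52268336-52353221 and Pck1 at chr2:173153048-173159273, each value above being a sum over the gene's exons.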

How the data were processed

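Adipose RNA of 5 lean and 6 obese mice, 2 pads each, was sequenced after ribosomal RNA depletion. The values deposited by the authors are raw, unnormalized HTSeq counts per gene symbol, made from prinseq-trimmed reads that STAR 2.4.0f had aligned to mm10; strand setting and gene annotation of the counting are not given in the sources used here. The deposited table holds 23420 genes and 5 lines of HTSeq totals, which were left out. Reads on no feature made up 38.5% to 48.8% per library. Their share was 38.5% to 41.0% in obese tumor-associated libraries and 40.8% to 48.8% in the other groups. Every column was matched to a sample (0 unmatched), and no 2 libraries of a group were closer than counting noise (lowest chi-square per degree of freedom 5.69).

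The main test was that of edgeR 4.0.16 under R 4.3.3 (TMM, default filter by group, quasi-likelihood F test, Benjamini-Hochberg adjustment over all 14458 genes, threshold 0.05), with all 22 libraries in 1 fit of 4 groups. Both pads of a number come from the same mouse; deviations from group means correlated between pads with a median r of 0.51 in lean mice (over 0.1 in 5 of 5) and 0.17 in obese mice (4 of 6), and the mouse as a block was an alternative. Others were DESeq2 1.42.0, upper-quartile and RLE scaling, other filters, groups fitted alone, each library left out and, chosen after their marker levels were seen, both pads of obese mice 0 and 4, or 1 and 3, left out. The fit was tested on simulated counts with 100 genes changed by 1 on the log2 scale, up or down. It recovered 56 of these in the lean tumor comparison, 69 in the obese one and 31 for the difference between diets. Many changes of that size would thus be missed in the lean comparison and in the difference.

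All 10 members were named in every comparison. From each pathway list the text gives the counts of genes called and mainly the up to 4 called genes with the largest absolute change; Ptpn1, Grb14, Enpp1, Pck2 and Gyk were added after their values were seen, and some called list genes are not reported here. The nearest gene in pattern used a prior count of 2. The members, lists and tests were chosen with earlier results of these data known. Exon lengths and positions came from GENCODE M21, promoters from RefSeq.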

Additional observations from a re-analysis of the deposited data

Results flagged for a closer look

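Within the lean tumor-associated pads, Irs1 in mouse 3 (396 CPM) stood apart from the others at 309 to 332 CPM, with a gap to its neighbour of 0.734 of the group's range against Dixon's limit of 0.71 for 5 samples. Irs2 in mouse 9 of the same group (99.9 CPM, others 44.6 to 55.3) stood apart likewise, with a gap of 0.807. These were 2 of 40 groups checked, and chance alone flags about 1 in 20. Neither gene was called in the lean tumor comparison with or without these libraries. For Akt1 the tumor change differed between obese and lean mice, by 0.41 on the log2 scale (SE 0.11, edgeR adjusted p = 0.0463), with the tumor-associated pad higher in 6 of 6 obese and 5 of 5 lean mice and the call lost in 19 of 30 alternatives.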

How the results depend on the processing

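Over the alternatives tried, 1443 member results kept direction and call, 18 gained and 32 lost a call, and 27 changed sign, none of the last having been called. The obese tumor count of 7 members was 7 under each library left out and 5 without both pads of obese mice 0 and 4. The lean tumor count of 0 became 1 with DESeq2, 3 with the groups fitted alone 2 without both pads of mice 0 and 4 and 1 without those of mice 1 and 3, and was 0 with any library left out. The difference between diets, 1 member, became 2 with DESeq2, 0 without the filter on low counts, 0 with the replicate block, 0 without both pads of mice 0 and 4 and 5 without those of mice 1 and 3, and ranged from 0 to 2 with a library left out. The diet counts ranged from 2 to 3 in control and from 5, with the groups fitted alone, to 8 in tumor-associated pads. With the replicate block the Akt1 difference between diets was 0.40 (adjusted p = 0.0576); pairing changed no other call.

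That Akt1 call was lost in 19 of 30 alternatives, among them 16 of 22 libraries left out, with estimates from 0.31 to 0.48 and adjusted p from 0.00566 to 0.183. The Insr call between tumor-associated pads was lost without lean mouse 0 or 9 or obese mouse 0, 2, 3, 4 or 8, at -0.37 to -0.27, without the filter (-0.35), with groups alone (-0.38) and without both pads of mice 0 and 4 (-0.20). Igf1 there was -0.94 with groups alone (adjusted p = 0.056).

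Signs changed without both pads of mice 0 and 4 for Igf1 (0.037) and Igf1r (-0.057) in the obese tumor comparison, Igf1r between tumor-associated pads (-0.054), and the difference between diets of Irs2 (0.018), Igf1 (0.076) and Igf1r (-5.83e-05). Without both pads of mice 1 and 3 they changed between control pads for Insr (0.030), Irs2 (0.15), Foxo1 (-0.011) and Igf1r (0.028). With a library left out, estimates that crossed 0 ran from -0.093 to 0.026 for Igf1 and -0.11 to 0.018 for Igf1r in the lean tumor comparison, from -0.0071 to 0.28 for Igf1r in the obese one, and between control pads from -0.098 to 0.012 for Insr, -0.15 to 0.082 for Irs2, -0.015 to 0.19 for Foxo1 and -0.083 to 0.033 for Igf1r.

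Over all genes, the lean tumor count of 605 was 913 with DESeq2, 1437 with groups alone and 1102 without both pads of mice 0 and 4, the obese count of 7882 was 4680 without those pads, and the difference between diets, 711 genes, was 2364 with DESeq2, 18 without the filter, 5 without those pads and 4951 without both pads of mice 1 and 3. With 1 library left out, the lean tumor count ran from 183 (lean tumor-associated mouse 2) to 952 (obese tumor-associated mouse 4) and, for the difference between diets, from 1 (tumor-associated lean mouse 0 or obese mouse 0) to 3568 (obese tumor-associated mouse 1). Upper-quartile scaling moved the split of higher to lower calls from 473 and 132 to 382 and 199 in the lean tumor comparison, and from 1380 and 1088 to 1068 and 1446 between control pads.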
